A study of Mus musculus with 6 samples.

Results

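Zinc importers of the Slc39 family were followed in the brains of mice that lack melanotransferrin and of wild-type mice. The set comprised 8 genes, Slc39a1, Slc39a3, Slc39a4, Slc39a6, Slc39a7, Slc39a10, Slc39a12 and Slc39a13, and left out Slc39a8 and Slc39a14, which also carry iron. Slc39a2, Slc39a5, Slc39a9 and Slc39a11, which the array also measures, were not in the set either and are described among its relatives. Every probe set that the platform annotation pairs with 1 of these symbols and no other was taken, with no filter on dim signals, which gave 14 of the 45037 probe sets that are not Affymetrix controls. Short probes against one transcript are read out together as a probe set, so a gene with several has several readings. The 8 were among 18193 genes with a probe set of their own. Slc39a6 had 4 probe sets, Slc39a3, Slc39a10 and Slc39a12 had 2 each, and the other genes had 1 each.

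The animals were 4 melanotransferrin knockout mice (MTf -/-, strain given as C57BL/6 - Lucy) and 2 wild-type mice (MTf +/+, C57BL/6) from a single litter, all females aged 123 days. Total brain RNA of each mouse was hybridised to 1 Affymetrix whole-genome expression array. The sources used here do not give how the gene was deleted, in which cells, or what the word Lucy stands for. The only comparison in the design is knockout against wild type, and for these genes it asks whether zinc importer transcripts differ in level when this iron-binding relative of transferrin is missing.

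Slc39 proteins, also called ZIP proteins, are membrane carriers that move zinc into the cytosol, from outside the cell or out of organelles. Slc30 proteins, the ZnT family, move it the other way, and metallothioneins bind what is in the cytosol. In the brain zinc is stored in the synaptic vesicles of some glutamatergic neurons, from which it is released during activity. The transcription factor MTF-1 senses cytosolic zinc and binds metal response elements, short DNA motifs that are found in the promoters of metallothionein genes.

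Promoter stretches with the core of that element are shown because they set the importers beside the genes through which the element is known. Windows from 250 bases before to 50 bases after a transcript start were present in the RefSeq table (GRCm38.p6) for 6 of the 8 importers, as 7 windows. Each was searched on both strands, with overlapping matches allowed, for the 7-base core in its spellings TGCACNC and TGCGCNC. The core occurred in 2 of the 7 windows, those of Slc39a3 and Slc39a13, while 25.7% of all 32851 windows held at least 1 match. The windows of Slc39a1, Slc39a7, Slc39a10 and Slc39a12 held no match. The stretches below give the core in capitals with 11 bases on either side, read along the strand of the gene, and Mt2, a metallothionein gene with 4 matches, stands for the known case.
Slc39a3 promoter, chr10:81037442-81037470, minus strand: catttggtagcTGCACTCatgtttagaaa
Slc39a13 promoter, chr2:91070281-91070309, minus strand: tgtgacgtggcTGCACGCcgggggtggct
Mt2 promoter, chr8:94172479-94172507, plus strand: cgcagacccttTGCGCTCagctcctttgc
The core began 144 bases before the annotated start in Slc39a3, at base 18 after it in Slc39a13, and 128 bases before it in this Mt2 match. A match is a description of these letters and does not show a bound site.

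The deposited values were signal intensities on a linear scale. Median signals over all probe sets lay between 238.2 and 278.3 on the knockout arrays, and were 192.5 on the array of wild type 1 and 240.3 on that of wild type 2. The array of wild type 1 had 24.5% of its probe sets below the offset of 49.6 that was added before taking log2, against 17.6% to 20.2% on the other arrays, and knockout 2 had a cerebellum marker level of -3.15 on the log2 scale, against 0.24 to 0.81 on the other 5 arrays. Results that rest on either array are given with and without it. Of the defining brain markers, Snap25, a neuronal release protein, read from 45275.1 to 61027.3 over the 6 arrays, and Mbp, a myelin protein, from 56230.4 to 95974.6. The Meltf probe set read 80.7, 132.9, 155.9 and 84.1 in the knockouts and 146.5 and 228.7 in the wild types, with overlap between the groups, and where its probes lie relative to the deleted part is not given, so that it does not check the labels.

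No Slc39 probe set passed the test of knockout against wild type. With limma and Benjamini-Hochberg adjustment over all probe sets, 0 of the 14 had an adjusted p below 0.05, against 0.0% of all probe sets, and the adjusted p ranged from 0.738 to 0.992. At an unadjusted p below 0.05 there were 2 of 14, where 6.76% of all probe sets reached that level. One of the 2 was higher in the knockout, as were 4.92% of all probe sets at that level, and the other was lower, as were 1.84%. The groups did not overlap for 3 of the 14, against 16.1% of all probe sets. Of the 3, 1 was higher in the knockout, beside 11.3% of all probe sets, and 2 were lower, beside 4.81%. Higher values in the knockout were seen for 8 probe sets and lower values for 6, with a median log2 fold change of 0.020, beside 60.3% higher and a median of 0.078 over all probe sets. Over the brightest probe set of each gene, 3 were higher and 5 lower, with a median of -0.14. With median centring of the arrays 1 was higher and 7 were lower, while the median over all probe sets moved to -0.14. Relative to the median of all probe sets, 2 of the 8 lay above and 6 below. Median centring shifts every log2 fold change by the same amount, so it cannot alter this count.

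**Figure D1:**
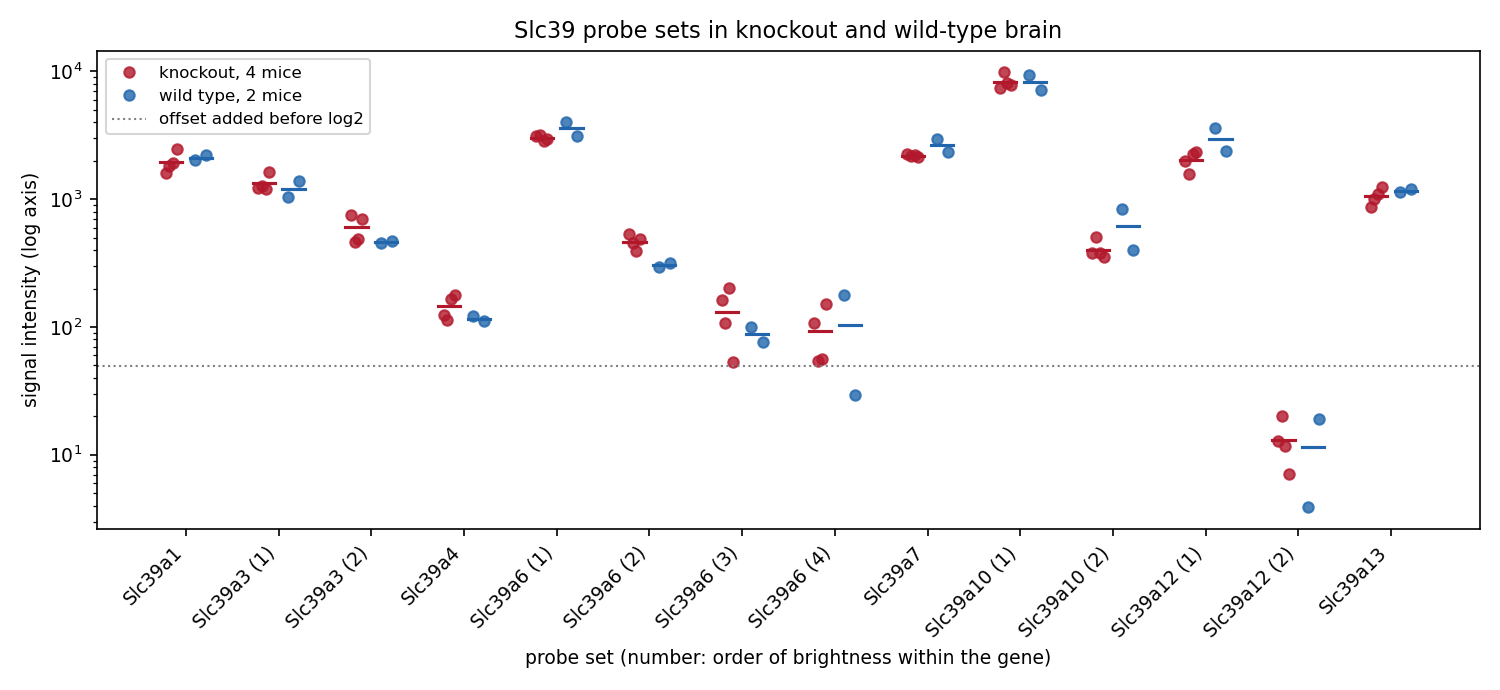
Signal intensity of the 14 Slc39 probe sets on a log axis, with 1 point per mouse (red, 4 knockout mice; blue, 2 wild-type mice), bars at the group means and a dotted line at the offset of 49.6. The 3 probe sets whose groups do not overlap are Slc39a6 (2), Slc39a7 and Slc39a12 (1), and Slc39a12 (2) lies below the offset in all 6 mice.

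**Figure D2:**
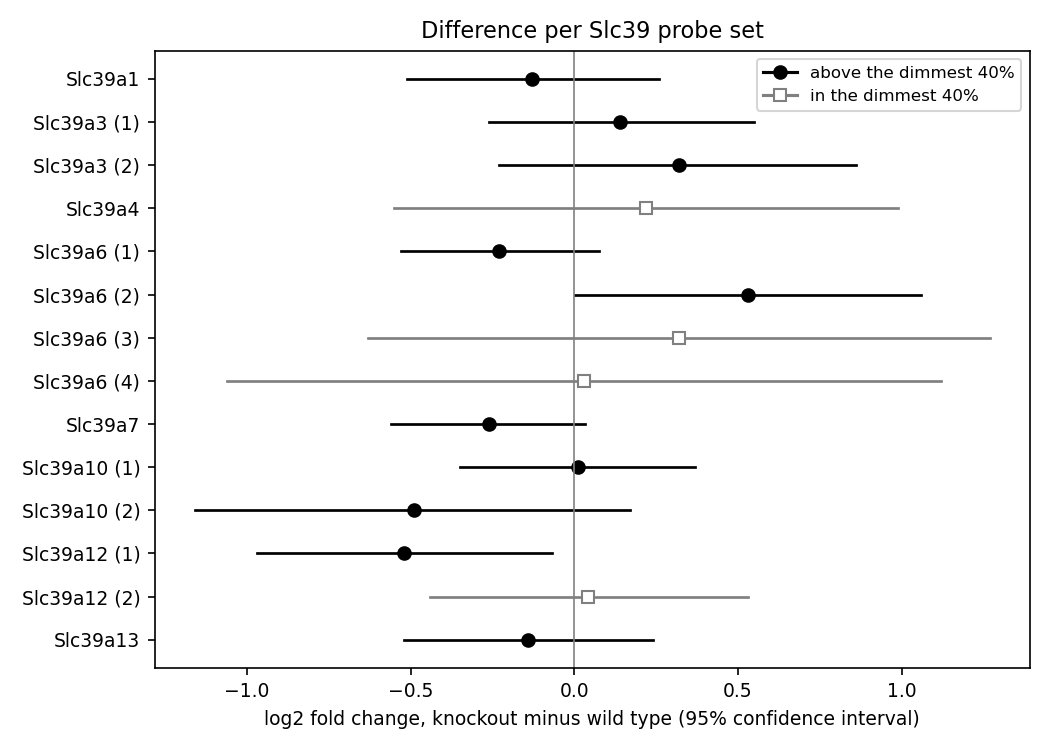
Log2 fold change, knockout minus wild type, of each Slc39 probe set with its 95% confidence interval from limma (filled circles, probe sets above the dimmest 40%; open squares, probe sets in the dimmest 40%). The intervals of Slc39a6 (2) and Slc39a12 (1) lie on 1 side of 0 before adjustment for the number of probe sets, and all others cross it.

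Among carriers of the cell surface, Slc39a12, which encodes ZIP12, a brain-enriched importer, showed the lowest fold change. Its brighter probe set read 1979.6, 1578.5, 2256.6 and 2348.5 in knockouts 1 to 4, against 3589.8 in wild type 1 and 2364.4 in wild type 2. Every knockout lay below both wild types, but knockout 4 and wild type 2 were nearly level and wild type 1 stood far above the rest. Knockouts averaged 2041 ± 346 (SD, n = 4), against 2977 ± 867 (SD, n = 2) for wild types. From the log2 values with the offset, the knockout was 1.43-fold lower. On the log2 scale the fold change was -0.52 (SE 0.20, 95% confidence interval -0.97 to -0.068, limma unadjusted p = 0.0281, adjusted p = 0.738, exact permutation p = 0.133). Leaving out wild type 1 gave -0.22 and leaving out wild type 2 gave -0.82, with -0.40 without knockout 2 and -0.11 without both wild type 1 and knockout 2.

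The second Slc39a12 probe set had no readable difference. It read 12.9, 20.2, 11.6 and 7.1 in the knockouts and 3.9 and 18.9 in the wild types, all below the offset. These values have no useful order, and the gene rests on its brighter probe set.

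The mean level of the astrocyte marker list put the arrays in the same order as Slc39a12. The level of the list, the mean log2 value of its 8 genes relative to their means and to all probe sets past the dim filter, was -0.073, -0.16, -0.050 and -0.036 in knockouts 1 to 4, against 0.28 in wild type 1 and 0.038 in wild type 2. Slc39a12 was ordered by its own signals, which were not set relative to all probe sets. From low to high, both the list and Slc39a12 ran from knockout 2 through knockouts 1, 3 and 4 to wild type 2 and wild type 1. This was the 1 match of order among 72 pairs of a Slc39 gene and a marker list, and 0.175% of all probe sets shared that order. All 8 astrocyte markers were above the dimmest 40% of probe sets, and knockout values were higher for 4 and lower for 4. The brightest of them, Aldoc and Slc1a2, were lowest in wild type 1, the array with the highest list level. Aldoc read 40746.2 there, against 51688.7 to 61330.3 on the other arrays, and Slc1a2 read 26910.7, against 32711.9 to 45634.8. The summed signal of the list was 134853 to 143435 in the knockouts and 116801 to 144376 in the wild types. The part of astrocyte content in the Slc39a12 values was not tested, and fewer cells of a type cannot be told apart from less RNA per cell in whole-brain RNA.

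The probe sets most like Slc39a12 over the 6 arrays belonged to Cds2, Rfxank and Tdo2. Likeness was the root mean square difference between log2 values after each probe set's mean was taken off, over 23061 probe sets with 1 other symbol past the dim filter. It was 0.0545 for Cds2, which makes a lipid precursor of phosphoinositides, 0.0667 for Rfxank, a regulator of MHC class II genes, and 0.0671 for Tdo2, which breaks down tryptophan. Cds2 read 426, 339.5, 446.4 and 502.3 in the knockouts and 827.1 and 521.8 in the wild types.

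Slc39a10 and Slc39a6 encode ZIP10 and ZIP6, close relatives that can pair in a single complex and whose outer domain resembles the prion protein. The brighter Slc39a10 probe set read 7476, 9818.3, 8107.4 and 7812.5 in knockouts 1 to 4, against 9404.5 in wild type 1 and 7145.9 in wild type 2. The 2 wild types lay toward either end of the range, and the groups overlapped. Knockouts averaged 8304 ± 1042 (SD, n = 4), against 8275 ± 1597 (SD, n = 2) for wild types. Knockout minus wild type gave a log2 fold change of 0.010 with a 95% confidence interval from -0.35 to 0.37. Differences within that interval, in either direction, are compatible with these arrays. The highest value belonged to knockout 2, the mouse with the low cerebellum markers, and without it the log2 fold change was -0.072.

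The dimmer Slc39a10 probe set read 377.4, 503, 377.4 and 350.8 in the knockouts, against 837.2 and 398.8 in the wild types. Wild type 1 was far above all other arrays and wild type 2 lay within the knockout range. The log2 fold change of -0.49 (SE 0.30, limma adjusted p = 0.761) became -0.98 when wild type 2 was left out and -0.00075 when wild type 1 was. Its size therefore rested on wild type 1.

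Slc39a6, known as LIV-1 for its oestrogen response in human breast cancer cells, went both ways on its probe sets. The brightest read 3135.1, 3188.2, 2830.9 and 2950.9 in knockouts 1 to 4, against 4036.3 in wild type 1 and 3122.5 in wild type 2. Wild type 1 alone stood above the knockouts, and wild type 2 lay within their range. The log2 fold change was -0.23 (SE 0.14, limma adjusted p = 0.759). Leaving out wild type 1 gave -0.046.

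The second Slc39a6 probe set read 535.5, 455.1, 390.1 and 484.4 in the knockouts, against 293.3 and 318.9 in the wild types. All 4 knockouts lay above both wild types, and the 2 wild types were close together. Knockouts averaged 466 ± 60.7 (SD, n = 4), against 306 ± 18.1 (SD, n = 2) for wild types. From the log2 values with the offset, the knockout was 1.44-fold higher. The fit gave a log2 fold change of 0.53 (SE 0.24, 95% confidence interval 0.0024 to 1.06, limma unadjusted p = 0.0491, adjusted p = 0.738, exact permutation p = 0.0667, the smallest that 4 against 2 arrays allow). Leaving out a wild type gave 0.48 (wild type 1) and 0.58 (wild type 2), and leaving out any 1 knockout gave 0.47 to 0.60.

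The platform annotation gives these 2 Slc39a6 probe sets the same source accession, yet their difference separated the groups. The second probe set minus the brightest, on the log2 scale, was -2.44, -2.68, -2.71 and -2.49 in the knockouts, against -3.57 and -3.11 in the wild types. The mean was -2.58 ± 0.13 (SD, n = 4) for knockouts, against -3.34 ± 0.33 (SD, n = 2) for wild types, a difference of 0.76 (2-sided exact permutation p = 0.0667, the smallest possible), with 0.52 when wild type 1 was left out and 0.99 when wild type 2 was. The 2 Slc39a10 probe sets have different source accessions. For Slc39a10 the same measure was -4.21 ± 0.075 (SD, n = 4) for knockouts, against -3.71 ± 0.42 (SD, n = 2) for wild types, the opposite direction. The difference of -0.50 (exact permutation p = 0.0667) was -0.21 without wild type 1. For Slc39a3, whose 2 probe sets share a source accession, the difference was 0.17 (exact permutation p = 0.6). It was 0.35 when wild type 1 was left out and -0.006 when wild type 2 was. These were the 3 genes with a second probe set above the dimmest 40%, and this measure was added after the values were seen. How often such a difference separates the groups over all genes of the array was not worked out. The separation therefore cannot be called particular to Slc39a6 or Slc39a10.

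The other 2 Slc39a6 probe sets were dim and of a type whose probes may bind other transcripts, as the letter x in their names marks. They read 53.3 to 201.9 and 54 to 150.9 in the knockouts, against 76.4 to 100 and 29.1 to 177.4 in the wild types. Their log2 fold changes were 0.32 and 0.031, with 95% confidence intervals from -0.63 to 1.27 and from -1.06 to 1.12. Averaged over its 4 probe sets the gene had a log2 fold change of 0.16, against -0.23 on the brightest, so that the direction for Slc39a6 depended on the probe set.

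The median fold change differed with signal level over the whole array. All probe sets were sorted by mean log2 level into 10 classes of equal size, with class 1 the dimmest. The median log2 fold change was 0.22 in class 5, 0.048 in class 7, which holds the second probe sets of Slc39a3, Slc39a6 and Slc39a10, and -0.040 in class 9, which holds Slc39a1, Slc39a7 and the brightest probe sets of Slc39a6 and Slc39a12. Without wild type 1 these medians were 0.035, 0.0084 and -0.0071. The medians did not fall steadily with level. With all arrays they were 0.1 in class 1, 0.21 in class 3, 0.2 in class 4, -0.014 in class 8 and -0.015 in class 10. Those classes hold the remaining Slc39 probe sets. The part of this dependence on level in the Slc39 values was not tested.

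**Figure D3:**
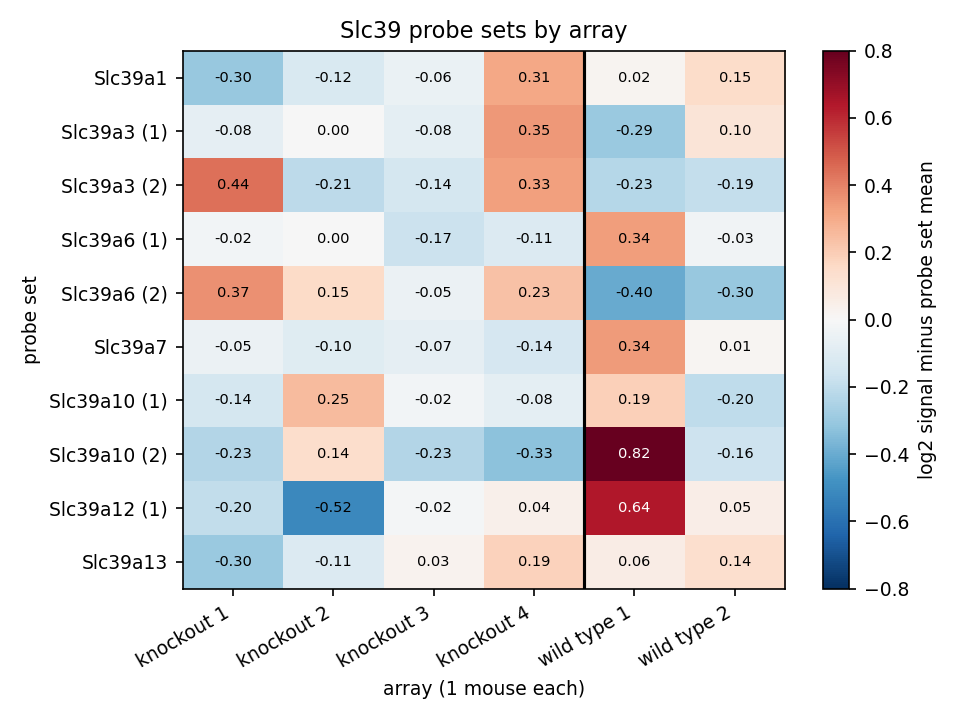
Log2 signal of the 10 Slc39 probe sets above the dimmest 40%, minus the mean of each probe set over the 6 arrays (columns, 1 mouse each; knockouts left of the black line; red above and blue below the mean). Wild type 1 has the highest cell in 4 rows, including 0.82 for Slc39a10 (2) and 0.64 for Slc39a12 (1), and knockout 2 has the lowest cell for Slc39a12 (1).

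Slc39a1 and Slc39a3 encode ZIP1 and ZIP3, surface importers that in mouse hippocampal neurons take up zinc released at synapses. Slc39a1 read 1598.5, 1816.1, 1906.2 and 2472.2 in knockouts 1 to 4, against 2012.1 in wild type 1 and 2202.3 in wild type 2. Both wild types lay inside the knockout range, which ran from the lowest array to the highest. In limma the log2 fold change was -0.13 (SE 0.17, 95% confidence interval -0.51 to 0.26, limma adjusted p = 0.889).

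The brighter Slc39a3 probe set read 1213, 1276.7, 1212.3 and 1643.5 in the knockouts, against 1035.6 and 1377.2 in the wild types. Knockout 4 stood above the other 3 knockouts, which lay between the 2 wild types. The log2 fold change was 0.14 (SE 0.18, limma adjusted p = 0.878), and -0.053 without wild type 1.

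The second Slc39a3 probe set read 755.8, 463.4, 489.6 and 694 in the knockouts, against 455.9 and 470.3 in the wild types. Knockouts 1 and 4 were high, while knockouts 2 and 3 were level with the wild types. On the log2 scale the fold change was 0.32 (95% confidence interval -0.23 to 0.86, limma adjusted p = 0.804).

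Slc39a4 encodes ZIP4, the main importer of dietary zinc in the gut, whose loss in humans causes acrodermatitis enteropathica, a hereditary zinc deficiency. In these brains it was dim, in the lowest 40% of all probe sets, with 123.3, 114.4, 164.3 and 177.7 in knockouts 1 to 4, against 122.4 in wild type 1 and 110.4 in wild type 2. Knockouts 3 and 4 were well above both wild types, and knockouts 1 and 2 were close to them. Knockout minus wild type gave a log2 fold change of 0.22 (95% confidence interval -0.55 to 0.99, limma adjusted p = 0.908), and quantile normalisation turned it to -0.013.

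Of the importers that work inside the cell, Slc39a7 encodes ZIP7, which releases zinc from the endoplasmic reticulum. It read 2262.2, 2184.2, 2219.7 and 2124.3 in knockouts 1 to 4, against 2969.4 in wild type 1 and 2359.6 in wild type 2. The 4 knockouts were tightly grouped and all lay below both wild types, of which wild type 2 was close to the highest knockout. Knockouts averaged 2198 ± 58.3 (SD, n = 4), against 2665 ± 431 (SD, n = 2) for wild types. From the log2 values with the offset, the knockout was 1.20-fold lower. The log2 fold change was -0.26 (SE 0.13, 95% confidence interval -0.56 to 0.032, limma unadjusted p = 0.0746, adjusted p = 0.743, exact permutation p = 0.0667, the smallest possible). Without wild type 1 it came to -0.10, and leaving out wild type 2 gave -0.43. The letter s in the name of its only probe set marks probes that may match more than 1 transcript.

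Slc39a13 encodes ZIP13, a carrier of the Golgi and of vesicles whose loss in humans causes a form of Ehlers-Danlos syndrome. It read 871.6, 1000.1, 1105.9 and 1238.6 in knockouts 1 to 4, against 1128.7 in wild type 1 and 1193.5 in wild type 2. The wild types again lay inside the knockout range. The fit gave a log2 fold change of -0.14 (SE 0.17, 95% confidence interval -0.52 to 0.24, limma adjusted p = 0.873).

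**Figure D4:**
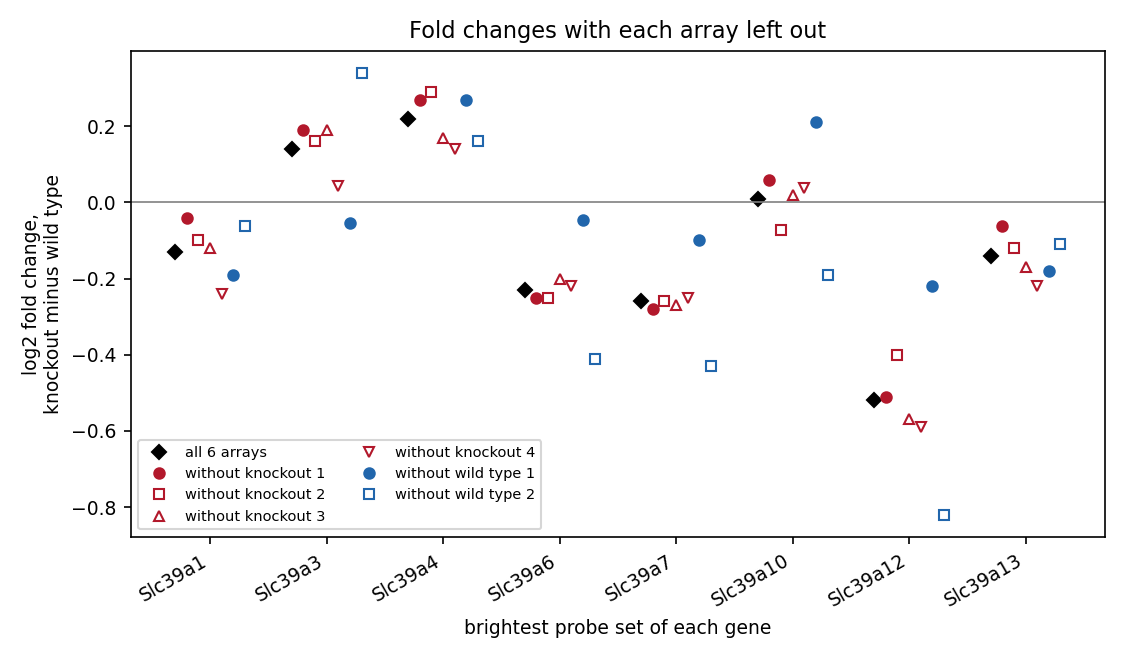
Log2 fold change, knockout minus wild type, of the brightest probe set of each Slc39 gene with all 6 arrays (black diamonds) and with each array left out (red, a knockout left out; blue, a wild type left out). The blue points lie at -0.82 and -0.22 for Slc39a12 and at -0.19 and 0.21 for Slc39a10.

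Wild type 1 decided the size of several of these values. With wild type 1 as the only one of its group, the brightest probe sets of the 8 genes had a median log2 fold change of -0.15. With wild type 2 in that role the median was -0.077. Medians over all probe sets, in the same order, were 0.15 and 0.018, so the choice of wild type moved the whole array as well. The part of this array-wide shift in the Slc39 values was not tested. Counts of low p-values are not compared here, because a single wild type gives no spread of its own. Of the 10 Slc39 probe sets above the dimmest 40%, wild type 1 had the highest value of the 6 arrays in 4 and the lowest in 3, and wild type 2 the highest in 0. Over all probe sets above the dimmest 40%, wild type 1 was highest in 21.3% and lowest in 29.5%, and wild type 2 was highest in 11.4%.

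Relatives of the set in the same family did not pass either. Slc39a8, which carries iron and manganese as well as zinc, read 308.4, 201.3, 245.2 and 226.5 in the knockouts, against 279.3 and 410 in the wild types, on its brighter probe set, a log2 fold change of -0.41 (SE 0.30, limma adjusted p = 0.796), or -0.65 without wild type 1 and -0.17 without wild type 2. Slc39a14, an importer of iron not bound to transferrin, had 0.074 on its brightest probe set (SE 0.17, limma adjusted p = 0.941), a value that leaving out wild type 1 brought to 0.18 and leaving out wild type 2 to -0.031. Slc39a9, Slc39a11, Slc39a2 and Slc39a5 gave 3 lower values and 1 higher, with a median of -0.11 on their brightest probe sets, and 0 passed. Slc39a9 had 0.021 without wild type 1, against -0.18 with all arrays, and Slc39a2 had -0.061 without wild type 2, against 0.11.

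Zinc exporters and zinc buffers were taken from lists chosen with earlier results known. Of the 10 Slc30 exporter genes 4 were higher and 6 lower in knockouts (median log2 fold change -0.11 on the brightest probe sets), and 0 passed in limma. Unadjusted, 2 of the 10 had a limma p below 0.05, as did 2 of all 13 probe sets of the list. Over the whole array 6.76% of probe sets reached that level. Slc30a3, encoding ZnT3, which fills synaptic vesicles with zinc, read 2689.2, 3228.7, 2683.1 and 2507.1 in the knockouts, against 1400.1 and 2482.7 in the wild types. Every knockout lay above both wild types, although wild type 2 was nearly level with knockout 4, and the log2 fold change was 0.55 (SE 0.21, limma adjusted p = 0.738). Without wild type 1 it was 0.15. Slc30a9 had -0.40 (SE 0.17, limma adjusted p = 0.738), which was -0.077 without wild type 1, and the very dim Slc30a2 had 0.67 (SE 0.50, limma adjusted p = 0.797), which was 0.23 without knockout 2.

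Of the 9 genes on a list of metal-binding proteins and zinc-responsive factors, 6 were higher and 3 lower (median log2 fold change 0.068), and 0 passed in limma. These counts rest on the brightest probe set of each gene, of which 0 had an unadjusted limma p below 0.05. Of all 25 probe sets of the list 2 did, beside 6.76% over the whole array. Mt2, whose promoter stretch is given above, read 17702.6, 17819.7, 20480.7 and 17626.7 in the knockouts, against 15268.6 and 15156.7 in the wild types. The groups did not overlap, and the log2 fold change was 0.27 (SE 0.14, limma adjusted p = 0.743, exact permutation p = 0.0667). Calb1, a calcium-binding protein rich in Purkinje cells, had -0.45 (SE 0.22) on its brightest probe set. The lowest value there, 11342.1, was that of knockout 2, where the cerebellum markers were low. The log2 fold change was -0.29 without that array, also -0.29 without wild type 1, and -0.61 without wild type 2. The other Calb1 probe sets had -0.17, -0.25 and -0.025, with overlap between the groups in each. Mtf2, a chromatin protein named for metal response elements, had 0.44 (SE 0.21) on its brightest probe set and the lowest value, 3083.3, in wild type 1, without which it had 0.027. Neither the brightest Calb1 probe set nor the brightest Mtf2 probe set passed in limma, with an adjusted p of 0.743 for each.

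The 6 Mtf2 probe sets did not move alike. Another of them read 2728.9, 2884.2, 2696.9 and 2784.1 in the knockouts, against 1947 and 2165.9 in the wild types. All 4 knockouts lay above both wild types there, and the log2 fold change was 0.42 (limma unadjusted p = 0.00522, adjusted p = 0.738), or 0.35 without wild type 1. A further Mtf2 probe set had -0.26, with every knockout below both wild types. Sp1, a zinc finger transcription factor, had the other reading with an unadjusted p below 0.05, a log2 fold change of -0.43 on a dimmer probe set (limma adjusted p = 0.738), against 0.068 on its brightest, and -0.29 without wild type 1. These probe sets were picked out after their values were seen.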

How the data were processed

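The table deposited by the authors gives a linear signal intensity for every probe set on each array. GCOS 1.3 is named in the submitters' processing notes. The sources used here do not give how probes were summarised, which calls of detection were made or to which target the arrays were scaled. Each array averaged 1000.0 over its middle 96% of values, so a common scale had been set.

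From these values, log2(signal + 49.6) was computed, the offset being the 20th percentile of the table, so fold changes of dim probe sets are understated. The contrast of 4 knockout minus 2 wild-type arrays was fitted to 45037 probe sets with no covariate and no dim filter in limma 3.58.1 (R 4.3.3; lmFit, then eBayes with trend). Residual degrees of freedom were 4 and prior ones 5.91. Tests are 2-sided, adjusted by Benjamini-Hochberg over all probe sets, with 0.05 as the limit. The fit was tested on simulated data with independent noise and changes far larger than those of the Slc39 probe sets. That test does not show whether differences of the size seen here would be found. Exact permutation tests over the 15 splits cannot give a p below 0.0667. The labels give no batch, scan date or pairing. Each array is 1 mouse, numbered in order of deposit. The number of arrays limits the precision.

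Of the 45037 probe sets 34945 had 1 gene symbol, and all 8 member symbols matched the gene table of GRCm38.p6. Where a gene had several probe sets, each was reported, and the brightest, by mean log2 value, stood for the gene in lists.

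The genes named were all members, Meltf, the relatives, the 3 members of the exporter list and of the buffer list with the smallest p on their brightest probe sets, and the 3 probe sets most like Slc39a12, the member whose brightest probe set had the largest SD of log2 values over the arrays among those past the filter. Of the marker lists, of which 9 were measured, the text names the genes its checks use. Members and lists were chosen with earlier results of these data known. Alternatives were 2 other offsets, quantile normalisation, median centring, a filter on the dimmest 40%, no intensity trend, the mean over probe sets, and each array left out, and, added after seeing the data, knockout 2 and wild type 1 left out together. Plots were drawn in Python 3.11.15.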

Additional observations from a re-analysis of the deposited data

Results flagged for a closer look

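The brighter Slc39a3 probe set read 1643.5 in knockout 4, far from the other 3 knockouts, with a Dixon ratio of 0.831 on the log2 scale, just past Dixon's 95% critical value for 4 samples. It was the 1 such case among the 14 Slc39 probe sets, and chance gives about 1 in 20.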

How the results depend on the processing

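No Slc39 probe set passed an adjusted p of 0.05 in limma under any alternative that kept both wild types. Of 186 recomputed log2 fold changes, 166 kept their direction. That count includes values that could not change. Leaving out the intensity trend or the dimmest probe sets does not alter a fold change, nor does averaging over probe sets for a gene with only 1. Reversals on the brightest probe sets were -0.07 (median centring), -0.053 (without wild type 1) and -0.036 (without knockout 2 and wild type 1) for Slc39a3; -0.013 (quantile normalisation) for Slc39a4; 0.16 (mean of all probe sets) for Slc39a6; and -0.2 (median centring), -0.072 (without knockout 2), -0.19 (without wild type 2) and -0.24 (mean of all probe sets) for Slc39a10. The fourth Slc39a6 probe set, 0.031, became -0.022 at the larger offset, -0.19 after quantile normalisation, -0.18 after median centring, and, with 1 array left out, -0.039 (knockout 1), -0.15 (knockout 4) and -0.73 (wild type 2), and was at most 0.79 with 1 array left out. The second Slc39a12 probe set, 0.043, became -0.0054 with quantile normalisation, -0.17 with median centring, -0.011 when knockout 2 was left out, -0.14 when wild type 1 was, and -0.19 when both were, and was at most 0.22 with 1 array left out. With any 1 array left out, brightest probe sets ranged from -0.24 to -0.040 (Slc39a1), -0.053 to 0.34 (Slc39a3), 0.14 to 0.29 (Slc39a4), -0.41 to -0.046 (Slc39a6), -0.43 to -0.10 (Slc39a7), -0.19 to 0.21 (Slc39a10), -0.82 to -0.22 (Slc39a12) and -0.22 to -0.061 (Slc39a13). The cause of these reversals was not tested.

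The count of 2 Slc39 probe sets with an unadjusted p below 0.05 was 3 after median centring, 1 at the larger offset, after quantile normalisation and without the intensity trend, 0 to 4 with 1 array left out, and 0 without knockout 2 and wild type 1. The count of 3 with no overlap was 5 after median centring, 2 after quantile normalisation, 3 to 9 with 1 array left out, and 9 without knockout 2 and wild type 1, where fewer arrays overlap less often by construction. Over all probe sets, 0 to 171 passed the adjusted threshold with 1 array left out, the 171 without wild type 2, and 1624 to 5336 had an unadjusted p below 0.05, with 1568 without knockout 2 and wild type 1, against 3046 with all arrays and 2108 past the dim filter. With 1 wild type left, its spread is taken to be that of the knockouts. Of the probe sets with an unadjusted p below 0.05, 72.8% were higher in the knockout, 54.0% after quantile normalisation and 20.3% after median centring. No paired analysis was possible because the labels give no pairing between the groups.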

Other observations

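Slc39a1 and Slc39a13, on different chromosomes, put the 6 arrays in the same order, from knockout 1 through knockouts 2 and 3, wild type 1 and wild type 2 to knockout 4. This was noticed in the values. It was the 1 pair with a shared order among the 28 pairs of Slc39 genes, and 0.133% of all probe sets, 60 in number, had that order.

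None of the 8 genes lies on chromosome 16, which carries Meltf, in the gene table of GRCm38.p6. Tdo2, one of the 3 genes nearest to Slc39a12, read 160.6, 117.1, 195.8 and 194.9 in the knockouts, against 286.3 and 204.4 in the wild types.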
